A study of Homo sapiens with 48 samples.

Results

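The 53 mitosis genes are a list chosen by name for their known work in cell division, and their mRNAs were followed in the human colorectal cancer line DLD-1. The list was matched by symbol to 53 of the 58721 gene identifiers in the files, and all 53 passed the expression filters of both data sets, with mean levels between 5.75 and 184 TPM (a share of all transcripts in the library, corrected for transcript length). The genes fall into 8 classes by role: cyclins and CDK1 regulation, the anaphase-promoting complex pathway, mitotic kinases and the spindle checkpoint, the chromosomal passenger complex, kinetochore and centromere, spindle motors and microtubule proteins, central spindle and cytokinesis, and chromosome structure and transcription.

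Each line expressed TIR1, a plant F-box protein that, once auxin is present, has degron-tagged proteins destroyed by the proteasome. CNOT1-AID and CNOT4-AID cells carried the auxin-inducible degron (AID) at the CNOT1 or CNOT4 gene, and the parental line carried no tag. CNOT1 is the scaffold of CCR4-NOT, the main complex that shortens poly(A) tails and so starts the decay of most mRNAs, while CNOT4, which associates with the complex, has ubiquitin ligase activity. In the steady-state set, each of the 3 lines was given 1 mM auxin or left untreated for 8 h or 24 h, which makes 12 groups of 2 libraries. In the triptolide set, each line received 1 mM auxin for 2 h and then 1 µM triptolide, a blocker of transcription initiation, for 0, 3, 6 or 12 h, again with 12 groups of 2 libraries, and every triptolide library including those of the parental line had auxin. The labels name cell lines and do not say how many clones each came from, nor whether the libraries of a group came from separate cultures, so p-values measure the spread between libraries, which may be technical. Auxin removes the protein and not its mRNA, so that the extent of depletion was not analysed here.

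Mitosis genes are transcribed late in the cell cycle, under promoters that carry CCAAT boxes and the cell cycle genes homology region (CHR), the site through which the MuvB core works in the repressive DREAM complex and, with MYBL2 and FOXM1, in activation. Many of the mRNAs turn over fast, so their level depends on both synthesis and decay. The cyclin B partners drive CDK1 into mitosis, the checkpoint holds the anaphase-promoting complex until kinetochores are attached, and the ubiquitin ligase then removes securin and the cyclins.

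The promoters of 8 genes whose mRNAs moved in the comparisons below are shown because the list is defined by function and not by sequence. Among them are the CKS and cyclin B paralogues, which were called in opposite directions on the main scale used below. Each line gives the 150 bases upstream of the RefSeq start site on the coding strand of GRCh38.p14, and capitals mark TTTGAA, its reverse complement TTCAAA, and CCAAT with its reverse complement ATTGG. The windows were HJURP at chr2:233854536-233854685 on the minus strand, CKS2 at chr9:89311045-89311194 on the plus strand, CKS1B at chr1:154974531-154974680 on the plus strand, CCNB1 at chr5:69167000-69167149 on the plus strand, CCNB2 at chr15:59104996-59105145 on the plus strand, PLK1 at chr16:23678739-23678888 on the plus strand, MKI67 at chr10:128126424-128126573 on the minus strand, and DLGAP5 at chr14:55191586-55191735 on the minus strand.
HJURP: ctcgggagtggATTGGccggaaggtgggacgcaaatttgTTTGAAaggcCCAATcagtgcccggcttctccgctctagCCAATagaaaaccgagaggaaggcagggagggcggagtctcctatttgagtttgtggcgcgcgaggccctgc
CKS2: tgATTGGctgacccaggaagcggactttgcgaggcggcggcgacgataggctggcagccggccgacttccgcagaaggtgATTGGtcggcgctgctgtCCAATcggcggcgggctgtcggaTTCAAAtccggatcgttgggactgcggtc
CKS1B: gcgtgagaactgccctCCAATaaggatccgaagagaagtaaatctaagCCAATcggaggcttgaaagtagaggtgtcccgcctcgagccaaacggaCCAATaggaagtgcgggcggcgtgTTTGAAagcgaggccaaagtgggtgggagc
CCNB1: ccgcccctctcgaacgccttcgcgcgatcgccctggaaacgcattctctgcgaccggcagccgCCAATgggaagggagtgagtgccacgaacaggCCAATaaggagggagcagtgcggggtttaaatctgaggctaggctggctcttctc
CCNB2: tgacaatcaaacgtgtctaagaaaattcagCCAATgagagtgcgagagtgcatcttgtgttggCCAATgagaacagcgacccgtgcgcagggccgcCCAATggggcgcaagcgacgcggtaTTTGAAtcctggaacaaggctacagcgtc
PLK1: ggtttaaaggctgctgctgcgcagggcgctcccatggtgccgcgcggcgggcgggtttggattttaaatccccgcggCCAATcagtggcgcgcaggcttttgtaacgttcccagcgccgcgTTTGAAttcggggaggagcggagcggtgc
MKI67: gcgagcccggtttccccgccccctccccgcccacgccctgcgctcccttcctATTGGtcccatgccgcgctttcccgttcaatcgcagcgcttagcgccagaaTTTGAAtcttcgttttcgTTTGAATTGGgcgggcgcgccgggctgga
DLGAP5: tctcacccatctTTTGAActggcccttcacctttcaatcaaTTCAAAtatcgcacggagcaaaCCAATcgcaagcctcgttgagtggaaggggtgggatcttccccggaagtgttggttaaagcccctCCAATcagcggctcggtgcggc
The upstream stretches of HJURP, CKS2, CKS1B, CCNB2, PLK1, MKI67 and DLGAP5 held both kinds of motif, and that of CCNB1 held a pair of CCAAT boxes and no TTTGAA. In MKI67 the later TTTGAA overlaps ATTGG by a base, and each was counted. RefSeq promoters were found for 46 of the 53 genes, as windows from 250 bases before to 50 bases after each start. A CHR-type motif, TTTGAA or TTCGAA on either strand, occurred in the promoters of 34 of 46 mitosis genes (73.9%), against 19.5% of 27305 genes with a promoter in the table. A CCAAT box on either strand occurred in 38 of 46 (82.6%), against 39.7% of all. Both occurred in 30 of 46 (65.2%), against 7.8% of all. The motifs did not split the list by its later calls on the main scale used below. After 24 h of auxin in CNOT1-AID cells, 7 of the 10 genes with a window and a higher mRNA had a CHR-type motif. So did 21 of the 29 with a window and a lower mRNA. Of all 33 genes called lower, with or without a window, 14 kept that call when scaled to spike-in RNA.

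Another set of sequences comes from the 3′ untranslated regions. Pumilio proteins bind an element made of TGTA, any base and ATA, and recruit CCR4-NOT. In 1 coding transcript per gene of GENCODE 29, on GRCh38, the element occurred on the sense strand in the 3′ untranslated region of 21 of 53 mitosis genes (39.6%), against 26.7% of 11710 other tested coding genes, although the median region was shorter, with 654 against 1050 nucleotides. The density was 0.461 elements per kilobase in mitosis genes, against 0.242 in the other genes. The AT-rich element ATTTA was no more frequent, with 66.0% against 68.3% of genes. The first element of 8 genes is shown in 30 bases of DNA letters on the coding strand, with the element in capitals: CKS2 at chr9:89316461-89316490 (plus), CCNB1 at chr5:69177679-69177708 (plus), CDK1 at chr10:60794113-60794142 (plus), CCNB2 at chr15:59124936-59124965 (plus), BUB1 at chr2:110637912-110637941 (minus), MKI67 at chr10:128098154-128098183 (minus), FOXM1 at chr12:2858286-2858315 (minus), and CBX5 at chr12:54241707-54241736 (minus).
CKS2: taatgtatatgTGTATATAaggtagtattc
CCNB1: catgtgccatcTGTACATAttactgttgca
CDK1: taacttaaaaaTGTAAATAttctatatgaa
CCNB2: actcttgatttTGTACATAgtcctctggtc
BUB1: aaaaatcacacTGTAAATAtgaatctgctc
MKI67: agcttcagactTGTAGATAtaactcgttca
FOXM1: agggtggtccgTGTAAATAgtataaattct
CBX5: tcatttctcttTGTACATAatacattcacc
CKS2, CCNB1 and CDK1 belong to the mRNAs that rose with auxin in CNOT1-AID cells, and CCNB2, BUB1, MKI67, FOXM1 and CBX5 to those that fell by 24 h.

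In CNOT1-AID cells, mitosis mRNAs moved in both directions after 8 h of auxin, in proportions that depended on the scale. Against untreated cells, 25 of the 53 rose and 9 fell past an adjusted p of 0.05, where 33.1% of the 14921 genes tested rose and 29.8% fell. After 24 h, 12 were higher and 33 were lower, where 36.7% of all genes were higher and 34.8% lower. The median log2 difference of the list was 0.15 at 8 h and -0.42 at 24 h on the TMM scale (trimmed means of log ratios), which sets the middle of all genes near 0. Scaled to ERCC spike-in RNA instead, the median of all genes stood at 0.42 at 8 h and 0.29 at 24 h, and with TPM as deposited at 0.26 and 0.21. The direction counts moved with it: 42 higher and 3 lower at 8 h under ERCC scaling and 38 and 5 without scaling, then at 24 h 17 and 14 under ERCC scaling and 16 and 18 without. In TPM as deposited, auxin libraries lay above untreated ones for 40 of the 53 genes at 8 h and below them for 5. At 24 h they lay above for 18 and below for 25. The share of all genes with such separate libraries was not counted. Relative to the median of all genes, the list stood 0.15, 0.20 and 0.18 above it at 8 h under TMM, ERCC and no scaling, and 0.41, 0.35 and 0.37 below it at 24 h. The spike-in was added to a fixed mass of RNA, so none of the scales counts molecules per cell, and fewer cells in mitosis and less mRNA per cell cannot be told apart in these bulk samples.

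**Figure D1:**
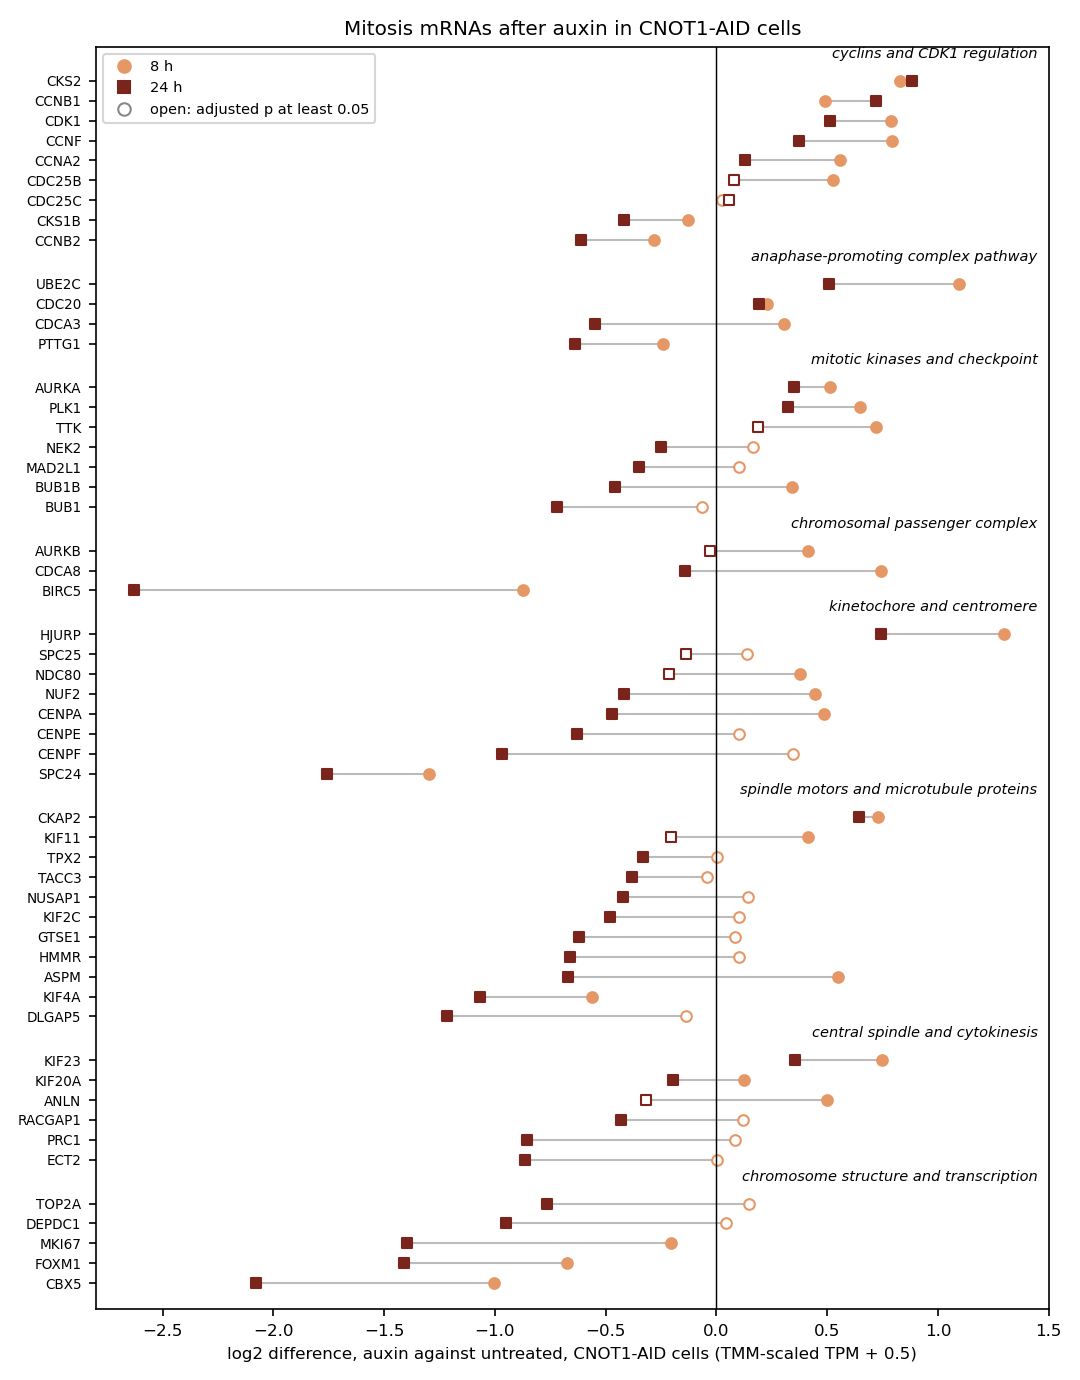
Each row is a mitosis gene, grouped by class, with its fitted log2 difference between auxin and untreated CNOT1-AID cells at 8 h (circles) and 24 h (squares); filled symbols passed an adjusted p of 0.05. HJURP reached 1.30 at 8 h, BIRC5 reached -2.63 at 24 h, and most lines run to the left between the times.

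The summed level of the 53 mRNAs ranged from 3599 to 3610 TPM in the auxin libraries of CNOT1-AID cells at 8 h, against 2251 to 2625 TPM in untreated libraries. At 24 h it ranged from 2812 to 3013 TPM with auxin, against 2585 to 2730 TPM untreated. The share of TPM on protein-coding genes moved alongside, at 51.7% to 52.1% with auxin against 42.6% to 46.3% untreated at 8 h, and at 52.3% to 54.7% against 44.9% to 47.2% at 24 h, and its part in the results was not tested. The pair of untreated CNOT1-AID libraries at 8 h was the least alike of the steady-state pairs over the mitosis genes, with an SD of 0.30 for their log2 differences, where other groups had 0.08 to 0.15. Colon epithelium markers were present as the label says, 10 of 11 at a mean of 1 TPM or more, summing to 2798 to 2806 TPM in auxin CNOT1-AID libraries at 24 h and 4072 to 4214 TPM in untreated ones. Of the markers of other cells a culture could hold, 0 of 4 for fibroblasts, 1 of 3 for blood and 0 of 3 for endothelium reached a mean of 1 TPM. Markers of fibroblasts summed to 2.46 to 4.09 TPM against 0.09 to 0.20 TPM, of blood cells to 3.16 to 3.81 TPM against 0.42 to 0.61 TPM, and of endothelium to 0.28 to 0.31 TPM against 0.31 to 0.35 TPM in the same groups. The part of these marker differences in the results was not tested.

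Among cyclins and CDK1 regulators, 6 of 9 rose and 2 fell at 8 h, and 5 rose and 2 fell at 24 h. Class counts here and below are on the TMM scale. Of all genes, 33.1% rose and 29.8% fell at 8 h, and 36.7% rose and 34.8% fell at 24 h. CDK1, the kinase that drives entry into mitosis, had 100.0 and 92.7 TPM in auxin libraries at 8 h, against 38.1 and 53.5 TPM in untreated ones, a log2 difference of 0.79 (SE 0.10, adjusted p = 2.2e-06). At 24 h it had 102.4 and 90.4 TPM with auxin against 57.2 and 55.0 TPM untreated (log2 0.51, SE 0.10, adjusted p = 0.00016). Auxin and untreated libraries did not overlap at either time. CCNB1, cyclin B1, had 267 and 269 TPM at 8 h with auxin, against 152 and 158 TPM untreated. Values at 24 h were 321 and 301 TPM with auxin against 159 and 155 TPM untreated, and its log2 difference was 0.49 at 8 h (SE 0.05, adjusted p = 2e-07) and 0.72 at 24 h (SE 0.05, adjusted p = 8.3e-10). It was the single gene of the 53 whose response was called higher at 24 h than at 8 h, by 0.23 (SE 0.07, adjusted p = 0.015), and this call ended under ERCC scaling (adjusted p = 0.58) and without scaling (adjusted p = 0.15), and when replicate 1 of untreated CNOT1-AID cells at 8 h, replicate 1 of auxin cells at 8 h or replicate 1 of untreated cells at 24 h was left out.

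The paralogues of both cyclin B and CKS were called in opposite directions on the TMM scale. CCNB2, cyclin B2, had 63.4 and 63.5 TPM with auxin at 8 h against 60.6 and 65.1 TPM untreated. CCNB2 then had 53.8 and 53.1 TPM with auxin at 24 h against 70.5 and 66.1 TPM untreated. Its fitted log2 difference at 8 h was -0.28 under TMM and 0.20 under ERCC scaling. It was -0.61 at 24 h (SE 0.05, adjusted p = 6.1e-09), opposite in sign to that of CCNB1 under TMM, ERCC and no scaling. CKS2, a small protein that binds CDKs, had 198 and 209 TPM with auxin at 8 h against 85.4 and 101.5 TPM untreated. After 24 h it had 232 and 229 TPM with auxin against 113.5 and 95.7 TPM untreated, the largest rise of the list at that time (log2 0.88, SE 0.06, adjusted p = 1.2e-09). CKS1B, its paralogue, had 115.7 and 116.7 TPM with auxin at 8 h against 100.4 and 106.7 TPM untreated. CKS1B then had 114.7 and 110.2 TPM with auxin at 24 h against 127.4 and 123.1 TPM untreated. Its libraries lay above untreated ones at 8 h and below them at 24 h in TPM. At 8 h CKS1B was at -0.13 under TMM and at 0.35 under ERCC scaling (adjusted p = 0.0053). The 24 h call for CKS1B under TMM (log2 -0.42, SE 0.04, adjusted p = 1.2e-07) ended under ERCC scaling and without scaling. CCNF, cyclin F, the substrate-binding part of an SCF ubiquitin ligase, had 52.9 and 53.1 TPM with auxin at 8 h against 24.96 and 24.4 TPM untreated. CCNF then had 41.7 and 40.8 TPM with auxin at 24 h against 26.1 and 26.8 TPM untreated. CCNA2, cyclin A2, and CDC25B, a phosphatase that activates CDK1, rose at 8 h by 0.56 and 0.53 log2 units (adjusted p = 1.9e-07 and 1.6e-06). CCNA2 at 24 h, at 0.13 (adjusted p = 0.049), passed in no fit without any of its 4 libraries. CDC25C, another phosphatase of CDK1, passed the test at neither time.

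In the anaphase-promoting complex pathway, 3 of 4 genes rose and 1 fell at 8 h, and 2 rose and 2 fell at 24 h. The shares of all genes that rose and fell were 33.1% and 29.8% at 8 h, and 36.7% and 34.8% at 24 h. UBE2C, the ubiquitin-conjugating enzyme of the complex, had 229 and 232 TPM with auxin at 8 h against 87.3 and 87.6 TPM untreated (log2 1.10, SE 0.05, adjusted p = 9.9e-12). Values at 24 h were 181 and 169 TPM with auxin against 105 and 99.5 TPM untreated (log2 0.51, SE 0.05, adjusted p = 6.6e-08). CDC20, the activator of the complex that the checkpoint restrains, had 250 and 260 TPM with auxin at 8 h against 177 and 177 TPM untreated. CDC20 then had 243 and 236 TPM with auxin at 24 h against 174 and 175.5 TPM untreated. The libraries of both genes were separate at both times. The calls of CDC20, at 0.23 and 0.19 log2 units (adjusted p = 0.0046 and 0.012), were lost without untreated replicate 2 at 8 h (adjusted p = 0.089) and without untreated replicate 1 at 24 h (adjusted p = 0.10). PTTG1, securin, which holds separase inactive until anaphase, fell at 24 h by 0.64 log2 units (SE 0.05, adjusted p = 2.9e-09), with 73.6 and 68.4 TPM with auxin against 93.0 and 92.0 TPM untreated, and kept that call under each scaling. At 8 h it stood at -0.24 under TMM and at 0.23 under ERCC scaling (adjusted p = 0.030). CDCA3, a mitotic entry factor, was higher at 8 h and lower at 24 h (log2 0.31 and -0.55, adjusted p = 0.0023 and 6.5e-06), the later call being lost under ERCC scaling.

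Of the 7 mitotic kinases and checkpoint genes, 4 rose at 8 h, and 2 rose while 4 fell at 24 h. The share of all genes that rose was 33.1% at 8 h, and at 24 h 36.7% rose and 34.8% fell. PLK1, polo-like kinase 1, had 123.5 and 125.2 TPM with auxin at 8 h against 63.2 and 65.8 TPM untreated (log2 0.65, SE 0.07, adjusted p = 2.2e-07). At 24 h it had 102.0 and 102.4 TPM with auxin against 70.8 and 65.3 TPM untreated (log2 0.32, SE 0.07, adjusted p = 0.0003). AURKA, the Aurora kinase of centrosomes and spindle poles, had 78.3 and 80.1 TPM with auxin at 8 h against 44.2 and 45.8 TPM untreated. AURKA then had 78.6 and 71.9 TPM with auxin at 24 h against 50.1 and 47.9 TPM untreated. PLK1 and AURKA lay above untreated libraries at both times. BUB1, a checkpoint kinase at kinetochores, had 42.9 and 43.2 TPM with auxin at 8 h against 31.8 and 42.3 TPM untreated, with a log2 of -0.06 under TMM and 0.41 under ERCC scaling. At 24 h it had 32.3 and 29.5 TPM with auxin against 44.1 and 41.4 TPM untreated (log2 -0.72, SE 0.06, adjusted p = 2.1e-08). TTK, the checkpoint kinase MPS1, had 38.7 and 34.9 TPM with auxin at 8 h against 15.1 and 21.35 TPM untreated (log2 0.72, adjusted p = 8.4e-06). TTK then had 33.65 and 29.03 TPM with auxin at 24 h against 23.9 and 21.8 TPM untreated, above them in TPM but without a call (log2 0.19, adjusted p = 0.10). Its 24 h response exceeded that of parental cells by 0.35 (SE 0.14, adjusted p = 0.039), a call kept under each scaling and lost without auxin replicate 1 (adjusted p = 0.13). BUB1B, the checkpoint protein BUBR1, was higher at 8 h and lower at 24 h (log2 0.34 and -0.46), the earlier call being lost without untreated replicate 1 (log2 0.16, adjusted p = 0.24) or auxin replicate 2 and the later one under ERCC and no scaling. MAD2L1, the CDC20 inhibitor MAD2, and NEK2, a kinase of centrosome separation, were lower at 24 h (log2 -0.35 and -0.25), calls that likewise ended under ERCC and no scaling, where NEK2 stood at 0.10 and 0.00.

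The 3 genes of the chromosomal passenger complex, which corrects kinetochore attachments and works in cytokinesis, diverged from each other. AURKB, its kinase, had 81.2 and 87.3 TPM with auxin at 8 h against 50.1 and 52.7 TPM untreated (log2 0.41, SE 0.06, adjusted p = 1e-05). At 24 h it had 64.7 and 60.9 TPM with auxin against 52.9 and 53.9 TPM untreated, with a fitted log2 difference of -0.03 under TMM that was 0.33 under ERCC scaling (adjusted p = 0.01) and 0.23 without scaling (adjusted p = 0.039). CDCA8, borealin, rose at 8 h (log2 0.74, adjusted p = 6.2e-10) and stood at 24 h at -0.14 under TMM (adjusted p = 0.011) and 0.21 under ERCC scaling (adjusted p = 0.048). BIRC5, survivin, had 50.5 and 51.0 TPM with auxin at 8 h against 75.7 and 76.6 TPM untreated (log2 -0.87, SE 0.06, adjusted p = 1.6e-09). At 24 h BIRC5 had 12.5 and 12.3 TPM with auxin against 67.2 and 65.9 TPM untreated, the largest fall of the list (log2 -2.63, SE 0.06, adjusted p = 1.8e-15). The fall of BIRC5 passed the test under each scaling at both times.

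**Figure D2:**
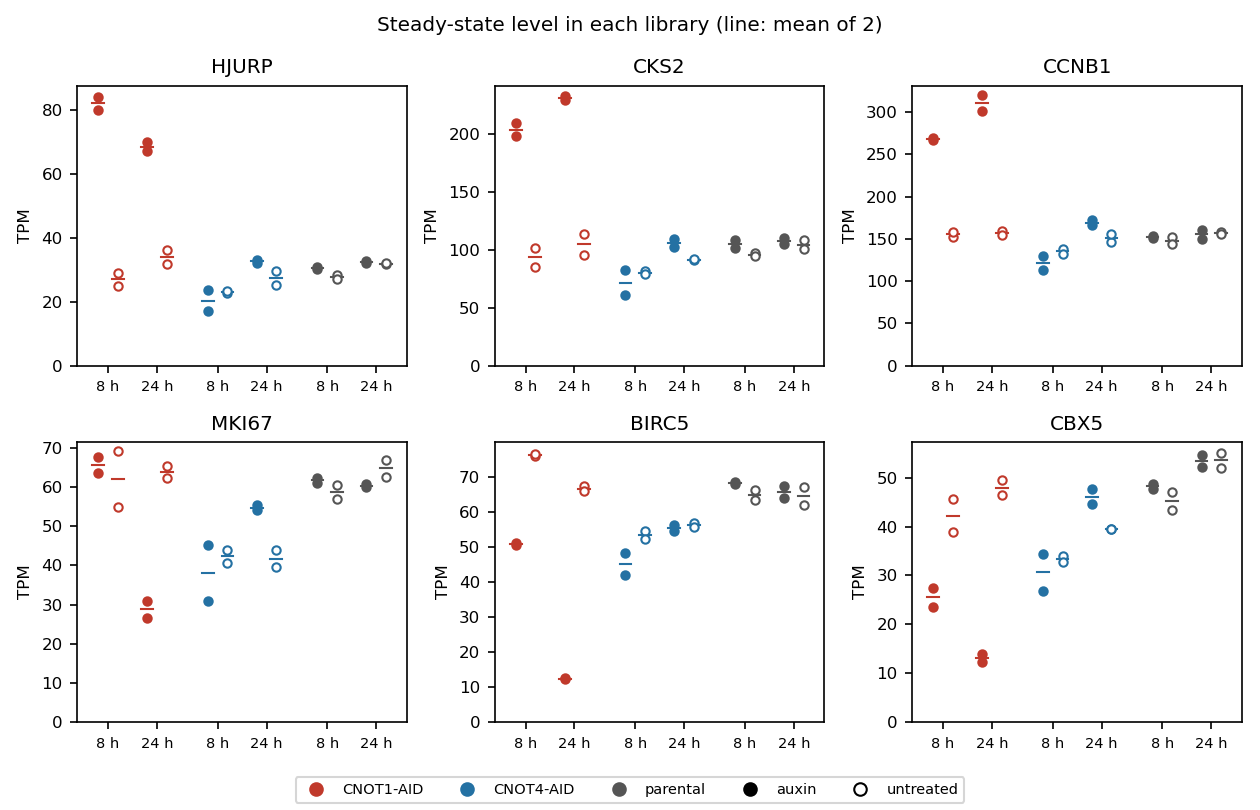
TPM in each library of 6 mitosis genes for the 3 lines at 8 h and 24 h, with auxin libraries (filled) left of untreated ones (open) and a bar at the mean of 2. In CNOT1-AID cells HJURP, CKS2 and CCNB1 lie above untreated libraries at both times, and BIRC5 and CBX5 below them, while parental libraries with and without auxin lie close together.

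At the kinetochore and centromere, 4 of 8 genes rose and 1 fell at 8 h, and 1 rose and 5 fell at 24 h. The shares of all genes that rose and fell were 33.1% and 29.8% at 8 h, and 36.7% and 34.8% at 24 h. HJURP, the chaperone that loads the centromeric histone CENPA, had 80.2 and 84.2 TPM with auxin at 8 h against 24.9 and 29.15 TPM untreated, the largest rise of the list at that time (log2 1.30, SE 0.07, adjusted p = 6.4e-11). After 24 h HJURP had 70.1 and 67.1 TPM with auxin against 36.25 and 31.9 TPM untreated (log2 0.74, SE 0.07, adjusted p = 3.4e-08). CENPA itself was higher at 8 h (log2 0.49, adjusted p = 6.9e-05) and lower at 24 h (log2 -0.47, adjusted p = 6.8e-05), where the later call was lost under ERCC and no scaling. The 4 subunits of the NDC80 complex, the microtubule anchor of the kinetochore, did not move together. SPC24 had 6.70 and 7.48 TPM with auxin at 8 h against 14.95 and 14.86 TPM untreated. SPC24 then had 5.36 and 4.51 TPM with auxin at 24 h against 15.2 and 15.0 TPM untreated. Its log2 difference was -1.30 at 8 h (SE 0.10, adjusted p = 5.9e-09) and -1.76 at 24 h (SE 0.10, adjusted p = 6.6e-11), and it fell under each scaling. NDC80 and NUF2 rose at 8 h by 0.38 and 0.44 log2 units (adjusted p = 0.002 and 0.00082), and SPC25 passed the test at neither time. CENPF, a large kinetochore protein, and CENPE, a kinetochore motor, were at 0.35 and 0.10 at 8 h without a call and lower at 24 h (log2 -0.97 and -0.63, adjusted p = 0.00024 and 0.006), calls that ended under ERCC scaling.

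Spindle motors and microtubule proteins gave 3 rises and 1 fall among 11 genes at 8 h, and 1 rise and 9 falls at 24 h. These are TMM calls, where 33.1% of all genes rose and 29.8% fell at 8 h. At 24 h 36.7% of all genes rose and 34.8% fell. CKAP2, a spindle protein, was the gene of this class called higher at both times, with 70.1 and 68.8 TPM with auxin at 8 h against 27.2 and 42.2 TPM untreated, and 77.2 and 67.9 TPM with auxin at 24 h against 41.4 and 35.7 TPM untreated (log2 0.64 at 24 h, SE 0.11, adjusted p = 7.6e-05). KIF4A, a chromokinesin, had 12.5 and 11.8 TPM with auxin at 8 h against 14.5 and 15.2 TPM untreated. KIF4A then had 7.96 and 7.63 TPM with auxin at 24 h against 14.4 and 14.0 TPM untreated (log2 -1.07 at 24 h, SE 0.06, adjusted p = 4.2e-11). DLGAP5, the spindle protein HURP, had 21.3 and 20.3 TPM with auxin at 8 h, inside the untreated pair of 14.5 and 24.0 TPM. DLGAP5 then had 12.1 and 10.5 TPM with auxin at 24 h against 24.2 and 20.8 TPM untreated (log2 -1.21, SE 0.12, adjusted p = 8.6e-08). The falls of KIF4A and DLGAP5 at 24 h held under each scaling, as did that of GTSE1, a microtubule-binding protein. KIF11, the bipolar spindle motor, and ASPM, a spindle pole protein, rose at 8 h (log2 0.42 and 0.55, adjusted p = 0.0014 and 0.015), the call of ASPM being lost without untreated replicate 1 (log2 0.15, adjusted p = 0.39) or auxin replicate 1. The calls of TPX2, KIF2C, HMMR, NUSAP1, TACC3 and ASPM at 24 h, from -0.33 for TPX2 to -0.67 for ASPM under TMM, ended under ERCC scaling, where TPX2 stood at 0.02.

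In central spindle and cytokinesis, 3 of 6 genes rose at 8 h, and 1 rose and 4 fell at 24 h. The share of all genes that rose was 33.1% at 8 h, and at 24 h 36.7% rose and 34.8% fell. KIF23, the motor of centralspindlin, had 65.9 and 62.8 TPM with auxin at 8 h against 26.5 and 36.2 TPM untreated. KIF23 then had 56.9 and 48.6 TPM with auxin at 24 h against 36.0 and 32.4 TPM untreated (log2 0.75 and 0.36, adjusted p = 4.4e-07 and 0.00077). Its partner RACGAP1 was at 0.12 at 8 h without a call and lower at 24 h (log2 -0.43, adjusted p = 3.5e-05), a call that ended under ERCC and no scaling. PRC1, which bundles antiparallel microtubules, had 58.4 and 55.5 TPM with auxin at 24 h against 85.8 and 86.8 TPM untreated (log2 -0.85, SE 0.04, adjusted p = 1.3e-11), and fell under each scaling. ECT2, the activator of RhoA at the cleavage site, also fell at 24 h under each scaling (log2 -0.86, adjusted p = 1.6e-05). ANLN, anillin, which links actin and the cleavage ring, rose at 8 h (log2 0.50, adjusted p = 0.0068), and the call was lost without untreated replicate 1 (log2 0.21, adjusted p = 0.17). KIF20A, another central spindle motor, was at 0.13 at 8 h (adjusted p = 0.037), a call lost under median-of-ratios scaling (adjusted p = 0.062) and without untreated replicate 2 (adjusted p = 0.14) or auxin replicate 2 (adjusted p = 0.27), and at 24 h at -0.20 under TMM and 0.16 under ERCC scaling.

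Chromosome structure and transcription was the class with no rise called on the TMM scale. There, 3 of 5 genes fell at 8 h and 5 of 5 at 24 h, with a median log2 of -0.21 and then -1.40. Of all genes, 29.8% fell at 8 h and 34.8% at 24 h. Under ERCC scaling CBX5 alone of the class kept its fall at 8 h. CBX5, the heterochromatin protein HP1 alpha, had 27.5 and 23.6 TPM with auxin at 8 h against 38.9 and 45.7 TPM untreated. CBX5 then had 14.0 and 12.3 TPM with auxin at 24 h against 49.5 and 46.4 TPM untreated. Its log2 difference was -1.0045 at 8 h (SE 0.06, adjusted p = 2.5e-10) and -2.08 at 24 h (SE 0.06, adjusted p = 2.5e-14). FOXM1, the transcription factor of late cell cycle genes, had 65.0 and 62.4 TPM with auxin at 8 h against 81.3 and 84.6 TPM untreated. FOXM1 then had 40.2 and 37.0 TPM with auxin at 24 h against 86.9 and 85.8 TPM untreated (log2 -0.67 and -1.41, adjusted p = 2.1e-09 and 1.2e-13). The auxin libraries of CBX5 and FOXM1 lay below the untreated ones at both times, and under ERCC scaling FOXM1 at 8 h no longer passed (log2 -0.20, adjusted p = 0.057). MKI67, the proliferation marker Ki-67 that coats mitotic chromosomes, had 63.7 and 67.7 TPM with auxin at 8 h, inside the untreated pair of 54.9 and 69.4 TPM, and its 8 h log2 of -0.21 under TMM was 0.27 under ERCC scaling and lost its call without untreated replicate 2 or auxin replicate 1. At 24 h MKI67 had 31.0 and 26.6 TPM with auxin against 65.3 and 62.4 TPM untreated (log2 -1.40, SE 0.07, adjusted p = 3.5e-11). TOP2A, topoisomerase II alpha, had 123.2 and 109.6 TPM with auxin at 8 h against 67.5 and 108.2 TPM untreated. TOP2A then had 77.9 and 67.5 TPM with auxin at 24 h against 105.8 and 100.4 TPM untreated (log2 -0.76 at 24 h, SE 0.12, adjusted p = 1.6e-05), a call that ended under ERCC scaling (adjusted p = 0.068). DEPDC1, a DEP domain protein, fell at 24 h (log2 -0.95, adjusted p = 4e-05).

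Over both times on the TMM scale, 12 mRNAs were higher at 8 h and at 24 h, 9 were lower at both, and 7 were higher at 8 h and lower at 24 h (CDCA3, BUB1B, CDCA8, NUF2, CENPA, ASPM and KIF20A), of which 0 kept the fall at 24 h under ERCC scaling. A further 17 were called at 24 h alone, all lower, and 6 at 8 h alone, all higher. Of all genes tested, 33.1% rose and 29.8% fell at 8 h, and 36.7% rose and 34.8% fell at 24 h. The share of all genes with each joint pattern was not counted, so these patterns cannot be set against it. Under ERCC scaling the 12 kept both rises, while 3 of the 9 kept both falls (BIRC5, CBX5 and SPC24) and 6 of the 17 kept the fall at 24 h (BUB1, DEPDC1, DLGAP5, ECT2, GTSE1 and PRC1). CDC25C and SPC25 were called at neither time. The response itself was lower at 24 h than at 8 h for 45 of the 53 genes, where 18.9% of all genes were lower and 17.4% higher, and the median change of the list was -0.56 log2 units. This difference depended little on the scale, with 40 of 53 lower and medians of -0.68 under ERCC scaling and -0.59 without scaling. The largest shifts were those of BIRC5 (-1.75, SE 0.08, adjusted p = 1.4e-09), CENPF (-1.32, SE 0.27, adjusted p = 0.0013), ASPM (-1.22, SE 0.26, adjusted p = 0.0015) and MKI67 (-1.19, SE 0.10, adjusted p = 5.8e-07). CKS2, CDC20, CKAP2, AURKA, CDK1, CDC25C and SPC25 showed no called change between the times, from 0.06 for CKS2 to -0.28 for SPC25.

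Other genes of the same processes, taken from lists of named complexes, are counted here in CNOT1-AID cells on the TMM scale, where 33.1% of all genes rose and 29.8% fell at 8 h and 36.7% rose and 34.8% fell at 24 h. Of 17 subunits and regulators of the anaphase-promoting complex, 9 rose and 5 fell at 8 h and 5 rose and 6 fell at 24 h. FBXO5, the inhibitor EMI1, was up by 1.39 log2 units at 24 h (adjusted p = 2.1e-09), and the small subunit ANAPC15 fell by 2.75 (adjusted p = 8.1e-14). Of 21 condensin and cohesin genes, 7 rose and 4 fell at 8 h, and 5 rose and 11 fell at 24 h. At 24 h WAPL, the factor that releases cohesin, was up by 1.28 (adjusted p = 6.4e-11) and SMC1A, a core cohesin subunit, stood at -1.86 (adjusted p = 2e-12). Of 19 genes of the constitutive centromere network, 4 rose and 6 fell at 8 h, and 3 rose and 13 fell at 24 h. Of 41 other mitotic regulators tested, 23 rose and 11 fell at 8 h and 11 rose and 19 fell at 24 h, with CDC25A, a CDK-activating phosphatase, at 1.58 (adjusted p = 7.7e-14) and SKA2, a kinetochore protein, at -2.16 (adjusted p = 2.1e-12) at 24 h. Among 19 DREAM and MuvB regulators, which act at CHR and CCAAT promoters, 9 rose and 6 fell at 8 h, and 9 rose and 7 fell at 24 h. MYBL2, the B-MYB activator that joins MuvB, stood at -1.56 at 24 h (adjusted p = 4.6e-12), and TFDP1, the partner of E2F factors, at -1.71 (adjusted p = 2.4e-14). NFYA, a subunit of the factor that binds CCAAT, stood at 1.64 at 24 h (adjusted p = 2.5e-13). These lists were not counted under the other scalings.

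In parental cells auxin changed no mitosis mRNA past the threshold in limma at 8 h or at 24 h, with 1 and 0 genes at an unadjusted p under 0.05, where at 8 h 0.0134% of all genes were higher and 0.0067% lower and at 24 h 0% of genes were called. Their log2 differences ran from -0.16 to 0.36 at 8 h and from -0.27 to 0.15 at 24 h. The response of CNOT1-AID cells exceeded that of parental cells for 22 genes at 8 h and fell short of it for 6, where 27% of all genes were higher and 23.2% lower. At 24 h the counts were 10 and 28, where 32.3% of all genes were higher and 29.6% lower. Under ERCC scaling they were 40 and 3 at 8 h and 13 and 9 at 24 h, and without scaling 25 and 4, then 13 and 13. The list median under ERCC scaling was 0.70 at 8 h and -0.02 at 24 h, against 0.47 and 0.32 for all genes. Without scaling the list median was 0.36 and then -0.12, against 0.17 and 0.23 for all genes. HJURP (1.26, adjusted p = 1.6e-08) and UBE2C (1.12, adjusted p = 1.6e-09) led the difference at 8 h, and BIRC5 (-2.66, adjusted p = 3.9e-13) and CBX5 (-2.08, adjusted p = 5.1e-12) at 24 h.

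**Figure D3:**
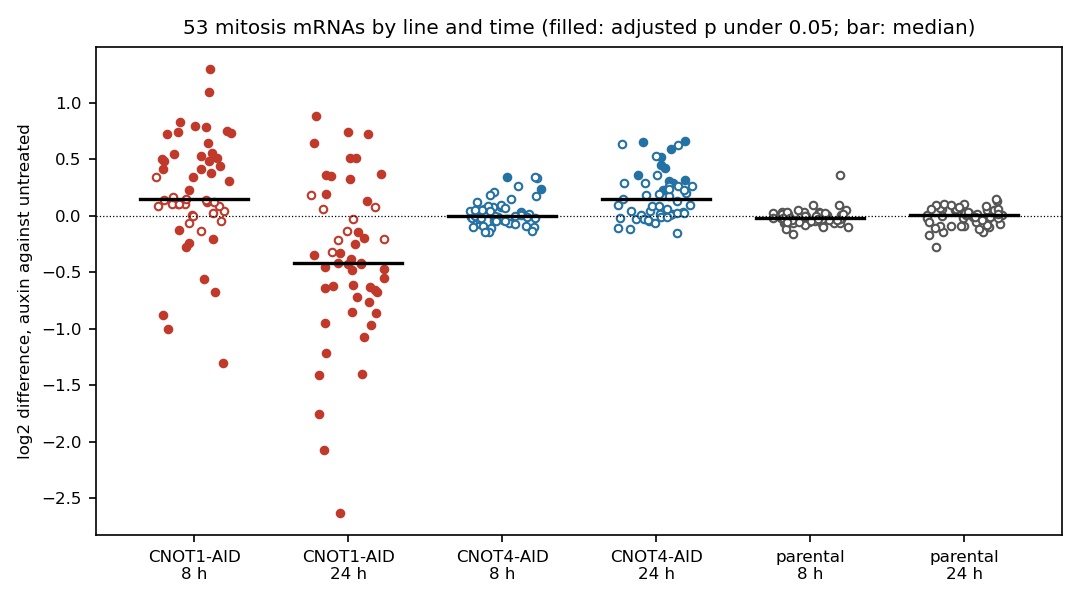
Fitted log2 differences between auxin and untreated cells for the 53 mitosis genes in each line and at each time; filled points passed an adjusted p of 0.05 and the bar is the median. The spread in CNOT1-AID cells runs from -2.63 to 1.30, and the parental points stay between -0.27 and 0.36.

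CNOT4-AID cells had few called changes at 8 h and small rises at 24 h. At 8 h CDC20 and TPX2 were called higher and 0 genes lower, where 0.241% of all genes were higher and 0.0469% lower. CDC20 had 164 and 183 TPM with auxin against 150 and 153 TPM untreated (log2 0.35, adjusted p = 0.034), and TPX2, the spindle factor that activates AURKA, had 38.5 and 49.2 TPM with auxin, around the untreated pair of 41.8 and 40.2 TPM (log2 0.24, adjusted p = 0.013). Neither call held under ERCC or no scaling, and 0 to 1 genes passed when any of the 4 libraries was left out. In TPM at 8 h the auxin libraries lay above untreated ones for 2 of the 53 genes and below them for 16, and fitted log2 differences were below 0 for 27 genes under TMM, 41 under ERCC scaling and 44 without scaling. Without scaling the median of all genes at 8 h was -0.13, against -0.15 for the list. At 24 h, 11 genes were higher and 0 lower, where 2.09% of all genes were higher and 2.42% lower, and the list median was 0.15. NDC80 had 16.5 and 15.6 TPM with auxin against 9.56 and 8.87 TPM untreated (log2 0.65, SE 0.09, adjusted p = 0.0025). DEPDC1 had 24.9 and 22.4 TPM with auxin against 12.4 and 14.7 TPM untreated (log2 0.66, SE 0.16, adjusted p = 0.029), and HMMR, a spindle protein, had 23.3 and 21.6 TPM with auxin against 12.55 and 14.5 TPM untreated (log2 0.59, SE 0.15, adjusted p = 0.041). Auxin libraries lay above untreated ones for 47 of the 53 genes in TPM at 24 h, and below them for 0. Without scaling the median of all genes at 24 h was also above 0, at 0.11, against 0.27 for the list. The share of all genes with separate libraries was not counted at either time. The share of TPM on protein-coding genes was 45.8% in both auxin libraries against 41.9% and 43.3% in untreated ones at 24 h, and 30.6% and 39.5% against 38.1% and 37.8% at 8 h, and its part in these counts was not tested. The other called genes were DLGAP5, KIF11, NUF2, CDC25C, KIF23, CDC20, TPX2 and AURKA, from 0.52 for DLGAP5 to 0.22 for AURKA. The count was 25 under ERCC scaling, with a list median of 0.42 against 0.24 for all genes, 2 without scaling, and 2 when replicate 1 or replicate 2 with auxin or replicate 1 without auxin was left out. The response of CNOT4-AID cells at 24 h did not differ past the threshold from that of parental cells for any mitosis gene in limma, with 20 genes at an unadjusted p under 0.05, the lowest adjusted p being 0.080, where 0.0402% of all genes were higher and 0.0268% lower, and 1 gene passed when replicate 2 of untreated parental cells at 24 h was left out. ASPM, CENPF and CENPE stood at 0.64, 0.62 and 0.53 in CNOT4-AID cells at 24 h without passing the test (adjusted p = 0.055, 0.069 and 0.11).

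The untreated lines differed slightly in mitosis mRNAs before any auxin. Untreated CNOT1-AID cells, over both times, had 17 genes higher and 0 lower than parental cells, where 10.1% of all genes were higher and 10.6% lower, led by KIF20A (log2 0.30, adjusted p = 1.2e-05), CCNB2 (0.27, adjusted p = 2.3e-05), PLK1 (0.27, adjusted p = 0.00048) and FOXM1 (0.27, adjusted p = 2.2e-05). The count was 4 under ERCC scaling and 8 without scaling, and 2 genes were lower when replicate 2 of untreated CNOT1-AID cells at 8 h was left out. Untreated CNOT4-AID cells had 10 genes higher and 2 lower than parental cells, where 10.5% of all genes were higher and 9.74% lower, and MKI67 (log2 -0.28, adjusted p = 0.0012) and CBX5 (-0.17, adjusted p = 0.0088) were the lower ones. Under ERCC scaling 8 were higher and 0 lower, and without scaling 0 were higher and 38 lower. The median log2 difference of all genes was 0.05 under ERCC scaling and -0.25 without scaling, against 0.09 and -0.25 for the list. The 38 therefore do not set the list apart from all genes.

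Triptolide showed which of these mRNAs are lost fast. In CNOT1-AID cells the median slope of the mitosis mRNAs was -0.0215 log2 units per hour, which corresponds to a half-life of 46.5 h, against 30.9 h over all genes, both extrapolated beyond the last time of 12 h, and loss was called for 1 gene, ASPM (slope -0.10, adjusted p = 0.0066), where 12.4% of all genes were called. In CNOT4-AID cells the median half-life was 5.05 h, against 6.79 h over all genes, with loss called for 53 of 53, where 85.1% of all genes were called. In parental cells the median mitosis mRNA had a fitted half-life of 9.53 h, against 14.7 h over all genes, and the loss was called for 37 of 53 genes, where 45.5% of all genes were called. At 12 h the median gene held 87.0% of its 0 h level in CNOT1-AID cells, with a range of 48.8% to 107%, 19.2% in CNOT4-AID cells (1.7% to 60.2%) and 42.5% in parental cells (4.7% to 105%). Levels are counts scaled to the ERCC spike-ins, which were added to a fixed mass of RNA, and libraries held 18216427 to 26723618 counts.

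Loss was slower in CNOT1-AID than in parental cells for 22 of the 53 genes and faster for 0, where 16.4% of all genes were slower and 1.01% faster. The 5 with the largest difference were CCNF, CKS2, HJURP, PLK1 and AURKA. CKS2 kept 101% and 77.8% of its 0 h level at 12 h in CNOT1-AID libraries, against 5.26% and 5.23% in parental libraries (slope difference 0.34 log2 units per hour, SE 0.04, adjusted p = 3.3e-10). CCNF kept 89.2% and 72.6% in CNOT1-AID libraries, against 4.78% and 4.64% in parental libraries (0.34, SE 0.03, adjusted p = 5.8e-11). HJURP kept 99.7% and 80.6% in CNOT1-AID libraries, against 6.46% and 5.88% in parental libraries (0.31, SE 0.03, adjusted p = 5.8e-10). PLK1 kept 98.9% and 75.2% in CNOT1-AID libraries, against 7.17% and 6.26% in parental libraries (0.30, SE 0.04, adjusted p = 2.2e-08). AURKA kept 105% and 89.2% in CNOT1-AID libraries, against 11.9% and 13.4% in parental libraries (0.24, SE 0.03, adjusted p = 5.8e-08). Libraries of the pair of lines were far apart at 12 h for each of these 5. CCNB1 kept 98.2% and 79.2% in CNOT1-AID libraries against 16.9% and 15.0% in parental ones (0.21, SE 0.04, adjusted p = 8.5e-05). CDK1 kept 106% and 85.3% in CNOT1-AID libraries, against 37.3% and 29.1% in parental libraries (0.12, SE 0.03, adjusted p = 0.0058).

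The 5 mRNAs with the largest falls at 24 h had no called slope difference. BIRC5 held 97.0% and 81.0% of its 0 h level at 12 h in CNOT1-AID libraries, against 114% and 95.9% in parental ones, and its slopes were not called different (-0.025, SE 0.03, adjusted p = 0.80). CBX5 held 92.6% and 77.4% in CNOT1-AID libraries, against 92.6% and 71.5% in parental libraries. FOXM1 held 104% and 84.8% in CNOT1-AID libraries, against 87.9% and 77.2% in parental libraries. SPC24 held 64.9% and 56.9% in CNOT1-AID libraries, against 76.0% and 64.0% in parental libraries. In these 4 genes the libraries of both lines overlapped at 12 h, while their steady-state levels had fallen with 8 h and 24 h of auxin on the TMM scale. MKI67 held 88.3% and 69.5% in CNOT1-AID libraries, against 65.6% and 52.8% in parental libraries (0.019, SE 0.04, adjusted p = 0.89).

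**Figure D4:**
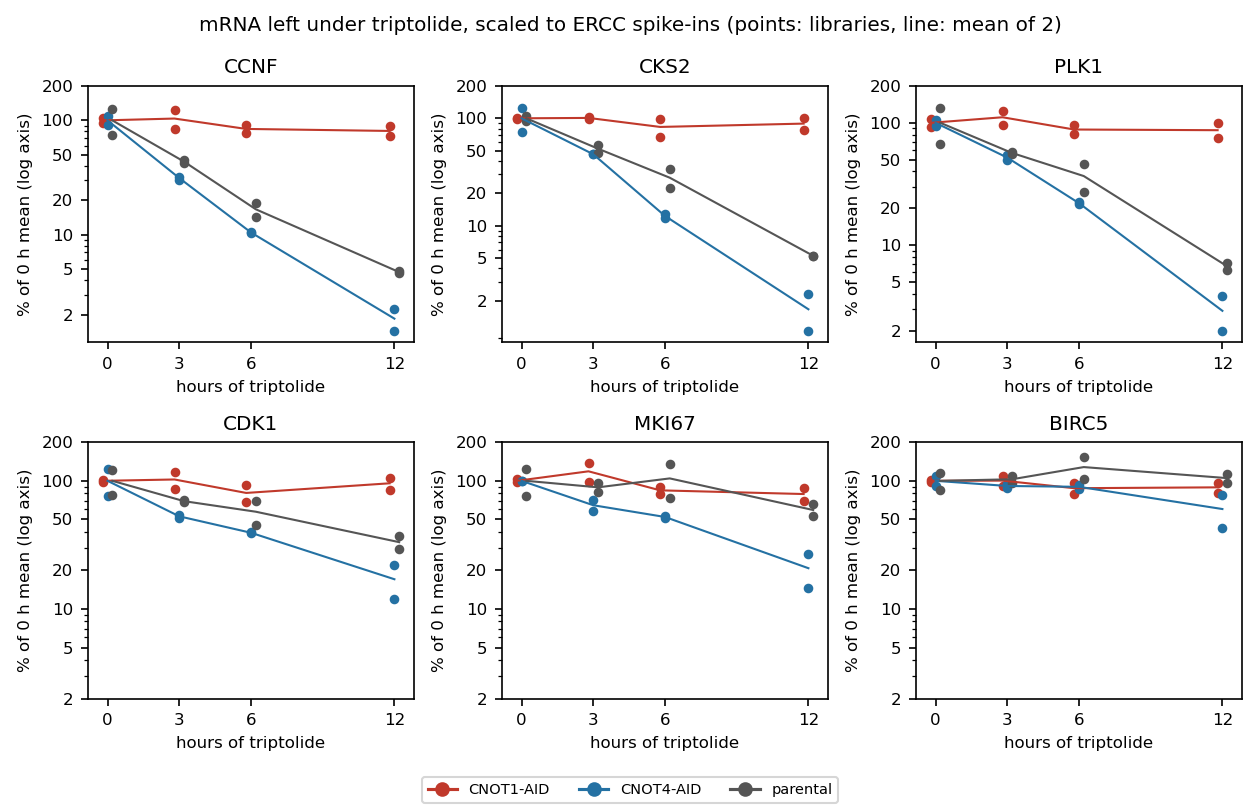
Percent of the mean 0 h level left in each library at 0, 3, 6 and 12 h of triptolide, on a log axis, scaled to ERCC spike-ins, for 6 mitosis genes in the 3 lines; lines join the means of 2 libraries. By 12 h CCNF stands at 89.2% and 72.6% in CNOT1-AID cells, 2.26% and 1.43% in CNOT4-AID cells and 4.78% and 4.64% in parental cells, while BIRC5 stands at 97.0% and 81.0% in CNOT1-AID and at 114% and 95.9% in parental cells.

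The 22 calls of slower loss leaned on the last time point more than on the scale. Without the 12 h libraries, 5 of the 22 calls were kept, those of CCNF, CKS2, HJURP, PLK1 and AURKA, and the list median of the slope difference was -0.0167, against -0.0413 for all genes, where with all times it was 0.0751 against 0.0175. With TMM in place of ERCC scaling, 27 genes were slower and 4 faster, and 22 of 22 calls were kept. The list median of the slope difference was then 0.0476, against -0.0107 for all genes. The parental pair at 0 h was the least alike of all triptolide pairs, with an SD of 0.43 for log2 differences over the mitosis genes, and without the 0 h libraries 15 of the 22 calls were kept.

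Most mitosis genes with slower loss had also risen at 8 h, where 33.1% of all genes tested rose and 29.8% fell. Of the 22 with a called slope difference, 20 were higher after 8 h of auxin in CNOT1-AID cells, 0 were lower and 2 were not called (NEK2 and GTSE1). The 25 genes higher at 8 h had a median slope difference of 0.144 log2 units per hour, the 9 lower at 8 h a median of 0.0062, and the 19 others a median of 0.0389. By 24 h, 11 of the 22 were still higher than in untreated cells and 7 were lower on the TMM scale, of which GTSE1 alone kept the fall under ERCC scaling, where CDCA8 was higher (log2 0.21, adjusted p = 0.048). Across the 53 genes the slope difference and the 8 h log2 difference had a Pearson r of 0.74 and a Spearman rho of 0.82, and with the 24 h difference 0.72 and 0.74. These are correlations across genes, which are not independent replicates, between separate sets of libraries of the same lines. The joint counts and correlations were not computed over all genes, so whether they are particular to the list was not tested.

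**Figure D5:**
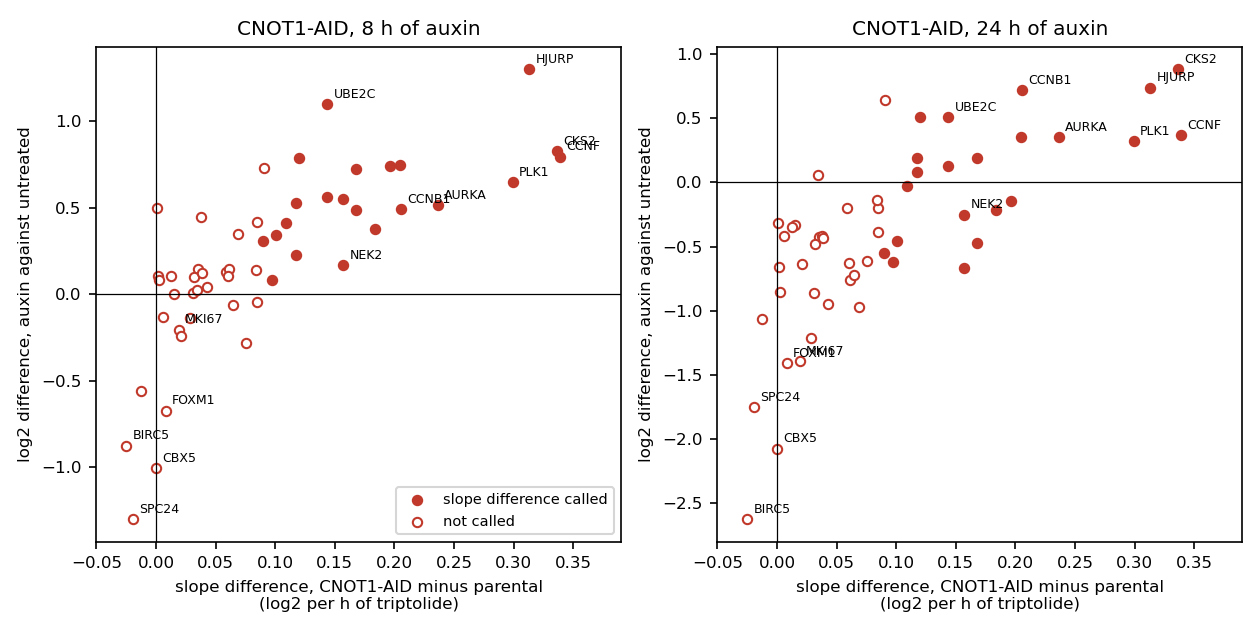
Each point is a mitosis gene, with the difference of its triptolide slope between CNOT1-AID and parental cells on the x axis and its log2 difference between auxin and untreated CNOT1-AID cells at 8 h (left) or 24 h (right) on the y axis; filled points have a called slope difference. At 8 h every filled point lies above 0, and at 24 h 7 filled points are genes called lower on the TMM scale, of which 1 (GTSE1) kept that call under ERCC scaling.

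Loss in CNOT4-AID cells was called faster than in parental cells for 11 genes and slower for 0, where 2.97% of all genes were faster and 0.00593% slower. The list median of the slope difference was -0.0857, against -0.079 for all genes. It was -0.0102 against -0.004 under TMM scaling, and -0.0857 against -0.0793 in DESeq2. CENPF held 12.3% and 6.4% of its 0 h level at 12 h in CNOT4-AID libraries, against 41.4% and 33.6% in parental ones (-0.16, SE 0.04, adjusted p = 0.040). CENPA held 10.5% and 5.68% in CNOT4-AID libraries, against 28.1% and 24.0% in parental libraries (-0.14, SE 0.03, adjusted p = 0.038). TTK held 9.44% and 5.1% in CNOT4-AID libraries, against 23.0% and 21.2% in parental libraries (-0.13, SE 0.04, adjusted p = 0.049). CKS2 held 2.29% and 1.04% in CNOT4-AID libraries, against 5.26% and 5.23% in parental libraries (-0.15, SE 0.04, adjusted p = 0.040). AURKA held 5.29% and 2.97% in CNOT4-AID libraries, against 11.9% and 13.4% in parental libraries (-0.13, SE 0.03, adjusted p = 0.034). All 11 calls (CENPF, CKS2, CENPA, AURKA, TTK, CENPE, KIF23, MKI67, BUB1B, HJURP and CCNF) ended under TMM scaling, without the 12 h libraries and without the 0 h libraries, DESeq2 called 44, and leaving out single libraries gave 0 to 49, with 14 of 16 moving the count by over 1.5 times. CNOT4-AID libraries of 12 h differed from each other by a median of 0.85 log2 units over the mitosis genes on the ERCC scale, with ERCC shares of 2.25% and 3.92%. Leaving out the first gave 49 calls and leaving out the second gave 0, and among parental libraries leaving out replicate 1 at 12 h gave 0 and replicate 2 at 12 h gave 47.

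Set against each other, CNOT1-AID and CNOT4-AID cells differed in slope for 49 of 53 genes, all slower in CNOT1-AID cells, where 46.4% of all genes were slower and 0.196% faster. The list median of the difference was 0.171, against 0.0944 for all genes, and the largest was 0.49 for CKS2 (SE 0.04, adjusted p = 7.3e-15). HMMR, KIF4A, MAD2L1 and BIRC5 were the 4 without a call. With TMM scaling 32 genes were slower and 3 faster, and without the 12 h libraries 11 were slower. The list medians were then 0.0655 with TMM scaling and 0.114 without 12 h, against -0.0089 and 0.0588 for all genes. Both comparisons with the parental line share its 8 libraries.

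At 0 h of triptolide, after 2 h of auxin, 7 genes were higher and 2 lower in CNOT1-AID than in parental cells, where 9.61% of all genes were higher and 4.84% lower, and 5 were higher and 0 lower in CNOT4-AID cells, where 7.83% and 4.09% were. PRC1 stood at 0.30 in CNOT1-AID cells (SE 0.07) and CENPF at 0.56 in CNOT4-AID cells (SE 0.09), and HJURP, UBE2C and CDK1 were among the genes without a call. The counts ran from 0 to 32 higher in CNOT1-AID cells and from 3 to 26 in CNOT4-AID cells when single libraries were left out, 32 and 26 being those without replicate 2 of the parental 0 h pair and 0 that without replicate 1 of the CNOT1-AID 0 h pair.

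The Pumilio element did not separate the mRNAs with slower loss. Of the 21 genes with the element, 8 had slower loss in CNOT1-AID than in parental cells, against 14 of the 32 without it, and the median slope differences were 0.0751 and 0.0724 log2 units per hour. On the TMM scale, 10 of the 21 rose and 4 fell at 8 h of auxin in CNOT1-AID cells, against 15 and 5 of the 32. At 24 h 4 rose and 13 fell, against 8 and 20. Of all genes, 16.4% had slower loss, 33.1% rose and 29.8% fell at 8 h, and 36.7% rose and 34.8% fell at 24 h. Under ERCC scaling 14 of the 33 falls at 24 h were kept. CKS2 and CCNB1, whose elements are shown above, lost mRNA more slowly in CNOT1-AID than in parental cells, as did HJURP, PLK1 and CCNF, in which the element was not found.

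Of the 53 genes, 13 overlap a coding gene on the opposite strand, among them SPC24, HJURP, PLK1, FOXM1 and KIF4A, and 4 overlap a coding gene on the same strand (BUB1B, CENPA, NUSAP1 and PRC1). The libraries were made with a stranded kit, and whether counting used the strand is not given in the sources used here, so reads of these genes could be shared with their neighbours.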

How the data were processed

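Steady-state RNA was measured in 24 libraries and RNA under triptolide in 24 further libraries, 2 per group. Per the labels' protocols, 500 ng of RNA with ERCC spike-ins entered a stranded, ribosomal RNA-depleted total RNA kit. Steady-state values were deposited by the authors as TPM per gene, and triptolide values were deposited as raw counts per gene. Tools listed in the submitters' processing notes were featureCounts, RSEM, SAMtools, DESeq2 and STAR 2.5.1b, with build hg38, and which tool made which table is not given in the sources used here. All 58721 gene identifiers were found in GENCODE 29.

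TPM were scaled with TMM, logged as log2(TPM + 0.5) and tested with limma 3.58.1 (trend and robust, 12 group means, 12 residual degrees of freedom) over 14921 genes with at least 1 TPM in at least 2 libraries. A fold on this scale understates the change of low genes, and the depth behind the TPM is unknown. Counts were tested with edgeR 4.0.16, quasi-likelihood and robust, in R 4.3.3, over 16858 genes. Each line had its own slope per hour of triptolide, library sizes were scaled to 56 of 92 ERCC sequences with a mean of at least 10 counts, and 18 residual degrees of freedom remained. Lines at 0 h were compared with TMM. Benjamini-Hochberg adjustment ran over all genes tested, with a threshold of 0.05. Both fits were run on simulated data that held no error in the ERCC scale. That check therefore does not cover the ERCC offsets between triptolide libraries of a group.

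The alternatives were other scalings, other pseudocounts, no filter, DESeq2 1.42.0 for counts, the replicate number as a block, and leaving out libraries or times. All 53 genes may be named, and values per library were given for the anchors and the largest changes. The members and lists were chosen with earlier results of these data known. Promoters came from RefSeq tables of GRCh38.p14. TT-seq libraries were not analysed here.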

Additional observations from a re-analysis of the deposited data

Results flagged for a closer look

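The following differences between groups were each tested as differences in themselves, by an interaction term or a contrast of slopes. In CNOT1-AID cells the response to auxin was lower at 24 h than at 8 h for 45 mitosis genes, where 18.9% of all genes were lower. BIRC5, the survivin gene, led them. Against the response of parental cells, that of CNOT1-AID cells was higher for 22 genes and lower for 6 at 8 h, and higher for 10 and lower for 28 at 24 h. Of all genes, 27% were higher and 23.2% lower at 8 h, and 32.3% higher and 29.6% lower at 24 h. Under ERCC scaling 22 of the 22, 3 of the 6, 10 of the 10 and 9 of the 28 calls were kept. HJURP led the rises at 8 h, CKS2 those at 24 h, SPC24 the falls at 8 h and BIRC5 those at 24 h.

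Under triptolide, 22 mitosis mRNAs were lost more slowly in CNOT1-AID than in parental cells, and 49 more slowly in CNOT1-AID than in CNOT4-AID cells. Of all genes, 16.4% and 46.4% were slower in these comparisons. Without the 12 h libraries 5 of the 22 and 11 of the 49 calls were kept. In CNOT4-AID cells 11 were lost faster than in parental cells, where 2.97% of all genes were faster. This count of 11 rests on the ERCC scale and on single libraries.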

How the results depend on the processing

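Median-of-ratios scaling, pseudocounts of 0.1 and 1 and the replicate block left the steady-state counts within 1.5 times. With ERCC scaling, CNOT1-AID responses gave 42 higher and 3 lower at 8 h and 14 lower at 24 h, and set against parental cells 40 and 3 at 8 h and 9 lower at 24 h. The same scaling gave 0 rises between the times, 0 and 25 higher in CNOT4-AID cells at 8 h and 24 h, 4 higher in untreated CNOT1-AID cells, 0 lower in untreated CNOT4-AID cells, and at 0 h 2 higher and 0 lower in CNOT1-AID and 2 higher in CNOT4-AID cells. Without scaling the counts were 38 and 5 at 8 h, 18 lower at 24 h, 13 lower at 24 h against parental, 0 rises between the times, 0 and 2 in CNOT4-AID cells, 8 higher in untreated CNOT1-AID and 0 higher and 38 lower in untreated CNOT4-AID cells. In that last comparison the median of all genes was -0.25, as was that of the list. Without a filter CNOT4-AID cells had 1 and 3 called, and 0 were lower at 0 h in CNOT1-AID cells. BUB1 at 8 h reversed to 0.41 and MKI67 to 0.27 with ERCC scaling, MKI67 to 0.0887 without scaling, and AURKB at 24 h to 0.33 and 0.23. The cause was not tested.

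For slopes, TMM scaling gave 4 faster in CNOT1-AID than in parental cells, 0 for CNOT4-AID, and 32 slower and 3 faster between both AID lines. DESeq2 called 44 for CNOT4-AID and 4 lower at 0 h in CNOT1-AID cells. Without 12 h the counts were 5, 0 and 11, with TMM scaling as well, chosen after seeing the data, 12, 0, and 13 slower and 1 faster, and without 0 h 0 for CNOT4-AID.

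Leaving out single libraries gave ranges of 0 to 1 for CNOT4-AID at 8 h, 2 to 8 at 24 h, 0 to 1 for CNOT4-AID against parental, 0 to 1 rises between times, 0 to 2 lower in untreated CNOT1-AID cells, 0 to 49 for CNOT4-AID slopes, and at 0 h 0 to 32 higher and 0 to 6 lower in CNOT1-AID and 3 to 26 higher and 0 to 9 lower in CNOT4-AID cells. The labels do not say whether equal replicate numbers mark paired samples, and the main fits did not pair them. Deviations of same-numbered samples correlated between -0.221 and 0.201 in TPM and between -0.409 and 0.246 in counts. Of 66 pairs of groups, 8 in TPM and 5 in counts were over 0.1, which cannot settle whether samples were paired. With the replicate block 1 gene was called for CNOT4-AID slopes, against 11 in the main fit. The smallest called CNOT1-AID responses were 0.13 log2 units for KIF20A at 8 h and for CCNA2 at 24 h.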
